A study of Ascaris suum with 12 samples.

Results

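Genes annotated as retrotransposon Pol proteins were followed along the germline of Ascaris suum, the large roundworm of the pig intestine. They were chosen by annotation, case ignored, as genes with any transcript named for a retrovirus-related Pol polyprotein, a retrotransposable element or a retrotransposon. The rule took 45 of 18025 genes, through 58 of 61820 transcripts. By name they form 3 families, with 22 genes of the R2 element, 15 of the Tf2 element and 8 of Pao retrotransposon peptidases. The rule reads annotation and no values, although the annotation words were picked with earlier results of these data known.

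Pol proteins carry the reverse transcriptase by which a retrotransposon copies its RNA back into DNA. R2 is an element without long terminal repeats, which in insects inserts at a fixed site of the large-subunit ribosomal RNA genes. Tf2 is an element of fission yeast that is flanked by long terminal repeats, as are the Pao elements of animals, whose peptidase cuts the element's polyprotein into its parts. In animal germlines, argonaute proteins loaded with small RNAs, together with heterochromatin, are known to hold such elements down. Names were given by likeness to proteins of other species, so a gene called R2 or Tf2 here need not be an active or complete element.

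Each of 10 libraries held RNA of 1 germline region dissected from adult worms. In the male the germline runs from a mitotic region through spermatogenesis and a post-meiotic region to the seminal vesicle and its spermatids. In the female it runs from a mitotic region through early and late pachytene to diplotene and the oocyte. All were untreated worms of a North American wildtype strain taken from pigs, and the number of worms behind a library is not stated. With 1 library a region there is no replicate, no error and no test. Levels are RPKM, reads scaled by transcript length and library size, and each gene takes the values of its transcript with the highest mean. A gene was called higher or lower in 1 library where log2(RPKM + 1) differed by at least 2, which is 4-fold, and the higher value was at least 10 RPKM. In dissected tissue, fewer cells of a type and less RNA per cell cannot be told apart.

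By the medians of marker genes, the libraries other than the seminal vesicle bore the marks of their sexes. Sperm genes (41, such as major sperm protein) had a median of 46.5 RPKM in spermatogenesis and 0.3 to 1.2 in the female libraries. Their median was only 2.3 in spermatids and 0.4 in the seminal vesicle, which is within the female range. Their summed RPKM in the seminal vesicle, 741.3, was above the 125.8 to 200.2 of the female libraries. Eggshell genes (19) had medians of 362.8 to 444 RPKM in the female mitotic and pachytene libraries. The seminal vesicle library stood apart. It listed 28.7% of genes at 0, against 11.97% to 21.8% elsewhere, and 3 transcripts of the ribosomal DNA locus took 31.8% of its RPKM times length, against 0.443% to 6.93% in the other 9. Cuticle genes took 8.82% of that library and 3.54% of spermatids, against 0.151% to 0.415% in the other 8. Intestine and yolk genes took at most 0.0393% of any library, and muscle genes 0.0508% to 0.696%. The part of any of these in the values below was not tested.

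Of the 45 genes, 39 reached 1 RPKM in some library and 22 reached 10. The R2 genes were the abundant ones, with 18 of 22 at 10 RPKM or more, against 3 of 15 Tf2 genes and 1 of 8 Pao genes. R2 genes held 90.1% to 99.9% of the members' summed RPKM in 9 libraries and 46.5% in the oocyte. Multiplied by transcript length, the 45 genes together took 1.13% of the male mitotic library, 0.452% of spermatogenesis, 1.29% of the post-meiotic region, 0.999% of the seminal vesicle and 0.195% of spermatids. In the female they took 1.32% of the mitotic library, 0.163% of early and of late pachytene, 0.614% of diplotene and 0.0233% of the oocyte. By this measure the share was highest in the female mitotic region, with the post-meiotic region close to it, and lowest in the oocyte. As a share of summed RPKM, without length, it was highest in the post-meiotic region, at 3.12% against 2.71% in the female mitotic region. The oocyte was again lowest, at 0.0084%.

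**Figure D1:**
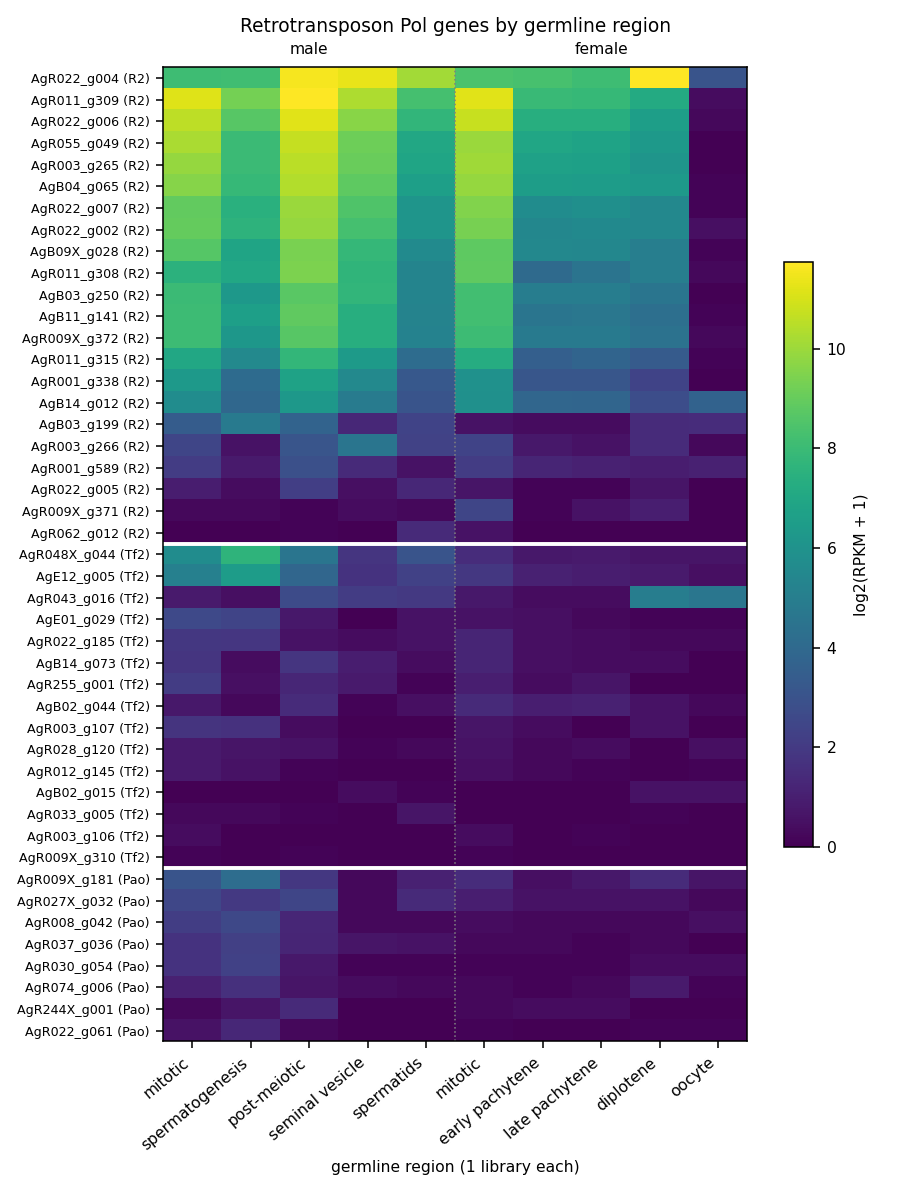
Level of each of the 45 retrotransposon Pol genes in each of the 10 libraries, as log2(RPKM + 1) in colour, with 1 library a column, genes in rows by family and mean level. The 22 R2 genes are at the top, and most bright R2 rows fade across the female columns to near 0 in the oocyte. AgB14_g012 is at 11.8 RPKM in the oocyte, and AgR022_g004 is brightest in diplotene, at 3339.9, before 7.4 in the oocyte.

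The R2 genes shared a profile. The second most abundant was AgR011_g309 (transcript AgR011_g309_t04, scaffold AgR011, positions 5002463 to 5002803, plus strand, 1 exon of 341 bases). In the 5 male regions, in order, it was at 2299, 615.7, 3427.8, 1270 and 307.2 RPKM. In the 5 female regions it was at 2343.1, 247.5, 229.9, 145.6 and 0.3 RPKM. Its level was about the same in both mitotic regions, highest in the post-meiotic region, and nearly gone from the oocyte. The size of these values rests on the transcript chosen. AgR011_g309_t02, a longer model that spans it, had the same order of regions but only 88.5 RPKM in the male mitotic region. AgR022_g006 (scaffold AgR022, 34651 to 35216, no strand given, 1 exon) had 1535.8, 417.7, 2354.3, 817.9 and 209.6 RPKM in the male regions, and 1723.6, 161.4, 161.2, 93.8 and 0.2 in the female regions. Both genes move through the same sequence of highs and lows.

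To compare genes of unlike abundance, each value was set against the gene's own female mitotic value. Of the 18 R2 genes at 10 RPKM or more, 14 lay within 1.5-fold of the median ratio in at least 6 of the 8 regions other than the female mitotic region and the oocyte, and 12 did in all 8. These 14 were picked for their likeness after the values were seen, so their agreement is a description. Their medians were 436.9, 143.8, 795, 267.9 and 58.5 RPKM in the male regions, and 544.6, 43, 44.5, 37.6 and 0.1 in the female regions. As a percentage of the female mitotic value, the medians were 88.2%, 25.7%, 146%, 52.4% and 12.4% along the male germline, and 9.71%, 9.49%, 6.88% and 0.0132% from early pachytene to the oocyte. In the oocyte 4 of the 14 were listed at 0. Across the 10 regions, Pearson's r of log2(RPKM + 1) between pairs of the 14 had a median of 0.991 (0.639 to 0.9996 over 91 pairs), where the points share libraries and near-identical copies may share reads.

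**Figure D2:**
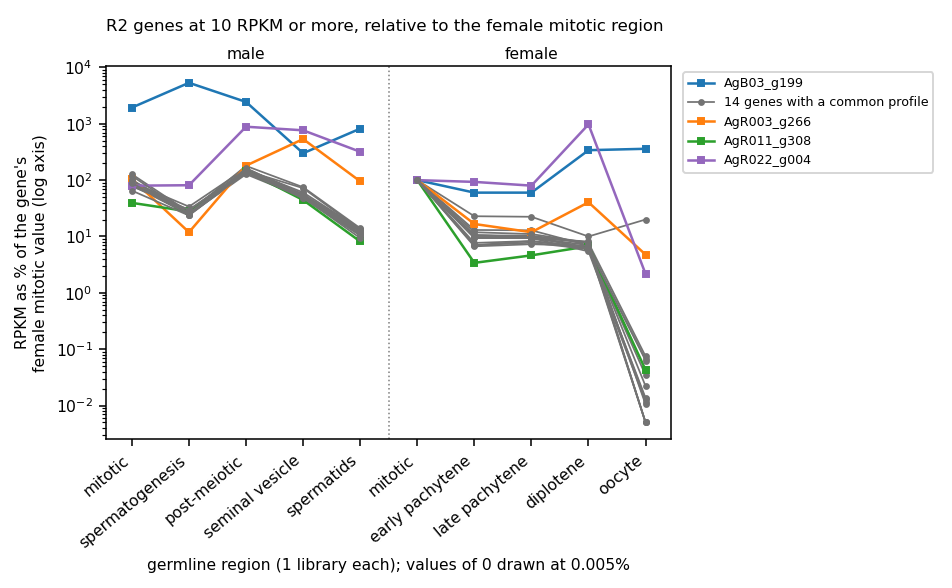
RPKM of the 18 R2 genes at 10 RPKM or more, as a percentage of each gene's female mitotic value on a log axis, by region with 1 library each and lines joining the regions of 1 gene. The 14 grey genes run together until the oocyte, where values of 0 are drawn at 0.005%, and the 4 coloured genes leave the band.

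The likeness was also sought from the other side. Among 9011 other genes at 10 RPKM or more in some library, ranked by Pearson's r with AgR011_g309 over the 10 regions, the first 12 were all R2 genes, with r from 0.956 to 0.9995. The first gene of another name stood at rank 13, AgR001_g406, named for the ubiquitin ligase HERC4, at r = 0.952. This gene of comparison was chosen after the values were seen.

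The other 4 R2 genes at 10 RPKM or more did not meet the 1.5-fold rule. By r alone AgR011_g308, 1 of these 4, stood at rank 12, above AgR001_g338, 1 of the 14, at rank 14. The most abundant member by mean was AgR022_g004 (AgR022, 22253 to 27067, minus strand, 2 exons, 1464 bases), at 272.9, 278.1, 3036.3, 2623.4 and 1091.6 RPKM in the male regions and 342.5, 318.8, 273.5, 3339.9 and 7.4 in the female regions. It kept its level through pachytene and, as deposited, was highest of all in diplotene. With libraries rescaled by median ratios, 0 R2 genes peaked in diplotene and 2 in the seminal vesicle, this gene among them. It stayed at 2623.4 and 1091.6 RPKM in the seminal vesicle and spermatids, where the 14 had medians of 267.9 and 58.5. It held 81.9% of the members' summed RPKM in diplotene and 46.2% in spermatids, against 2.80% in the male mitotic region. AgR011_g308 (AgR011, 4885480 to 5000962, minus strand, 2 exons), a model of 260 transcribed bases with spliced leader and cap flags, was also highest in the post-meiotic region but, as a share of its female mitotic value, was below the 14 in early pachytene, at 3.40%. It had 15.9, 21.6 and 31.4 RPKM from early pachytene to diplotene, an upward order that AgR011_g309 did not have. Its female mitotic level of 467.2 RPKM was also above its male mitotic level of 184.6. AgR003_g266 (AgR003, 4590549 to 4598658) was highest in the seminal vesicle, at 22.5 RPKM, with 7.6 in the post-meiotic region and at most 4.4 in the other 8 libraries. AgB03_g199 (AgB03, 3454843 to 3468646, plus strand) was highest in spermatogenesis at 26.7 RPKM, and that value belongs to a transcript named for sperm-specific class P protein 31. Its transcripts that carry the R2 name reached 9 RPKM there, and all its transcripts overlap.

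AgB14_g012 (AgB14, 156059 to 162210, minus strand, 5 exons) kept the common profile in 6 of the 8 regions but had the highest R2 value in the oocyte, 11.8 RPKM. Its male regions were at 51.1, 14.4, 75.2, 28.9 and 7.4 RPKM and its other female regions at 59, 13.5, 13.2 and 5.9. A hypothetical-protein transcript of the same gene, AgB14_g012_t02, was at 19.8 RPKM in the oocyte, its highest value. The transcripts overlap and share reads, so the oocyte value of the R2 transcript cannot be set apart from theirs.

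The first question the dissection allows is how the sexes differ where both germlines begin. In the mitotic regions, 2 of 18 members at 10 RPKM or more were called higher in the male (background 18.2% of 7112 genes) and 0 lower (background 12.1%). Both were Tf2 genes, AgR048X_g044 and AgE12_g005. Not 1 of the 16 R2 genes was called, and among the 14 of common profile the male to female ratio of RPKM was 0.651 to 1.27, with a median of 0.882 (1.09 with libraries rescaled by median ratios, which turns its direction). Over whole germlines, 0 of 22 members had all 5 regions of 1 sex above all 5 of the other with a gap of 2-fold on RPKM + 1 (background 1.24% for male above and 4.42% for female above). With no gap asked, AgR048X_g044 was above in the male, or 1 of 22 (background 6.69%), and 0 in the female (background 10.1%). The median over the 5 male regions was above that over the 5 female regions in 22 of 22 members, by 1.07 to 3.80 on the log2(RPKM + 1) scale, against 3041 of 9012 genes. Rescaling kept the 22, but the same count over all genes became 4671. The regions of a sex are unlike stages and not replicates, and R2 copies may share reads. The 22 are therefore not separate observations of a sex difference. AgR048X_g044, AgE12_g005, AgR009X_g181, AgB03_g199 and AgR003_g266 reached 10 RPKM only in male libraries. AgR043_g016 counted as higher in the male by its medians, 2.9 and 0.7 RPKM, although its highest value, 30.5, was in diplotene.

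The region of the highest value was counted next. Of the 22 members at 10 RPKM or more, 15 were highest in the post-meiotic region, 4 in spermatogenesis, 1 in the seminal vesicle and 2 in diplotene. Of 9012 genes at that level, 4.62% peaked in the post-meiotic region and 46.9% in any male region, which held the peak of 20 members. All 15 post-meiotic peaks were R2 genes. With rescaled libraries 24 members reached 10 RPKM, and 15 again peaked in the post-meiotic region and 6 in spermatogenesis. The seminal vesicle then held 2 peaks, both of R2 genes, and diplotene 1, of a Tf2 gene.

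The step from spermatogenesis to the post-meiotic region was where R2 genes were higher. AgR022_g004 went from 278.1 to 3036.3 RPKM, 10.9-fold, and the 14 genes of common profile were 4.79 to 6.60-fold higher, with a median of 5.63. In calls, 16 of 20 members were higher (background 23.9%), all of them R2 genes. The 3 that were lower (background 31.5%) were the Tf2 genes AgR048X_g044 and AgE12_g005 and the Pao gene AgR009X_g181. Other Tf2 and Pao genes were under 10 RPKM in both libraries and gave no call. The count of members higher rests on scaling. Rescaling gave 1 of 22 members higher (background 10.1%) and 6 lower (background 48%), both below the share of all genes. The median ratio among the 14 became 2.58, still above 1. It moved the median log2 difference of all genes in this step to -0.29, from 0.

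Before that step, from the mitotic region to spermatogenesis, the 14 were 2.60 to 4.73-fold lower, with a median of 3.50, and 2 of 20 members were called lower (background 33.3%) and 0 higher (background 6.73%). AgR055_g049 was the most changed, at 1210.4 and 256 RPKM. Rescaling turned the direction to a median of 1.22-fold higher, so no direction is given for R2 genes in this step. Rescaled, 6 of 22 members were called higher, below the share of all genes (background 44.9%), and 0 lower (background 1.19%).

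After it, the 14 were 2.03 to 3.03-fold lower in the seminal vesicle than in the post-meiotic region, with a median of 2.78 (2.01 rescaled). Here 3 of 20 members were called lower (background 30.8%) and 0 higher (background 8.86%). Those 3 were AgR048X_g044, AgE12_g005 and AgB03_g199. Spermatids were lower again, by 3.90 to 5.44-fold among the 14, with a median of 4.49 (5.22 rescaled). In that step 14 of 17 members were called lower (background 3%, 86 of 2864 genes) and 0 higher (background 18.1%). All 14 were R2 genes, and AgR022_g004, at 2623.4 and 1091.6 RPKM, was not among them. The 3 transcripts of the ribosomal DNA locus went from 31.8% to 1.59% of the library in this step and from 6.93% to 31.8% in the step before it, where R2 genes were lower. Of 27 cuticle genes at 10 RPKM or more, 19 were called higher in spermatids than in the seminal vesicle (background 18.1%) and 0 lower (background 3%). Their part in the R2 values was not tested. Since the seminal vesicle listed so many genes at 0, spermatids were also set against the post-meiotic region, where 15 of 19 members were lower (background 23.2%) and 0 higher (background 8.19%).

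**Figure D3:**
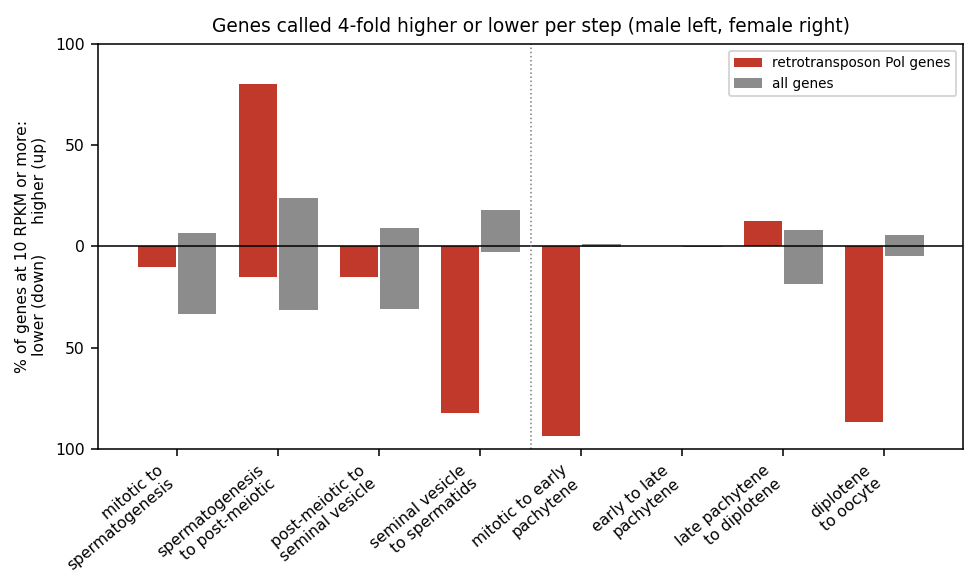
Percentage of genes at 10 RPKM or more in either library of a step that were called 4-fold higher (bars up) or lower (bars down), for the retrotransposon Pol genes in red and all genes in grey, 1 library a region, values as deposited. The red bars are the tallest from spermatogenesis to the post-meiotic region (16 of 20 higher), from seminal vesicle to spermatids (14 of 17 lower), from female mitotic library to early pachytene (15 of 16 lower) and from diplotene to oocyte (13 of 15 lower).

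Between the ends of the male germline, 17 of 18 members were called lower in spermatids than in the mitotic region (background 38.4%) and 0 higher (background 7.85%). They were 15 R2 genes and the Tf2 genes AgR048X_g044 (51.5 and 7.2 RPKM) and AgE12_g005 (33.5 and 3.8). AgR055_g049 had the largest difference, going from 1210.4 RPKM (male mitotic region) to 132.8 (spermatids), -3.18 on the log2(RPKM + 1) scale. The 14 of common profile were 6.67 to 9.11-fold lower, with a median of 7.46. AgR022_g004, at 272.9 and 1091.6 RPKM, lay just under the threshold for a higher call. In the same comparison 23 of 34 cuticle genes were higher in spermatids (background 7.85%) and 3 lower (background 38.4%). Rescaled, the median of the 14 was 3.21-fold lower, under the 4-fold threshold. Of 18 members, 0 were then called lower (background 15.2%) and 1, AgR022_g004, higher (background 15.2%).

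The female germline had a large step at each end. From the mitotic region to early pachytene, 15 of 16 members were called lower (background 0.553%, 32 of 5788 genes) and 0 higher (background 0.985%). These 15 are R2 genes, so R2 genes made up 15 of the 32 genes lower in this step. The 14 of common profile were 4.37 to 14.97-fold lower, with a median of 10.3, and AgR011_g308 had the largest difference, from 467.2 to 15.9 RPKM. The median log2 difference over all genes at 10 RPKM or more was -0.29, against -3.35 for the 16 members. The gene that was not called was AgR022_g004, at 342.5 and 318.8 RPKM. Rescaling left 14 members lower, of 17 genes in all, and a median of 7.64-fold. Copies that share reads are not independent, and the 15 genes lie at fewer sites, as given below. Eggshell genes went the other way, from 6.90% to 10.7% of the library, and the ribosomal DNA transcripts from 0.995% to 1.28%. The part of either in the R2 values was not tested.

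Early and late pachytene were alike for the R2 genes. The ratio of late to early was 0.929 to 1.18 among the 14, and 0 of 15 members were called in either direction (background 0% higher and 0.179% lower). From late pachytene to diplotene the 14 were 1.07 to 2.24-fold lower as deposited, with a median of 1.33, but higher by a median of 1.27-fold when rescaled. The 2 members called higher of 16 (background 7.94%) were AgR022_g004, from 273.5 to 3339.9 RPKM, and the Tf2 gene AgR043_g016. With 0 called lower (background 18.4%), R2 genes other than AgR022_g004 took no part in calls at this step.

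The oocyte library held almost no R2 RNA. From diplotene to oocyte 13 of 15 members were called lower (background 4.75%, 180 of 3788 genes) and 0 higher (background 5.52%). All 13 were R2 genes, among them AgR022_g004, from 3339.9 to 7.4 RPKM, 451-fold. Of the 14, the 10 above 0 in the oocyte had a median ratio of 253-fold lower against diplotene (211 rescaled). The ratio of diplotene to oocyte ran from 0.5 to 778, and AgB14_g012 was higher in the oocyte, at 11.8 RPKM against 5.9. The median of the 14 in the oocyte was only 0.1 RPKM, so the size of these folds is imprecise. Against the female mitotic region, 16 of 17 members were called lower (background 38.9%), which were the 16 R2 genes at 10 RPKM or more there. AgR011_g309 was at 2343.1 and 0.3 RPKM, AgR055_g049 at 1019.7 and listed at 0, and AgR003_g265 at 1059.6 and listed at 0. AgR043_g016 was the 1 member called higher (background 8.97%). Rescaling left 15 of 17 lower (background 11.9%), without AgB14_g012, whose difference became -0.81 on the log2 scale.

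**Figure D4:**
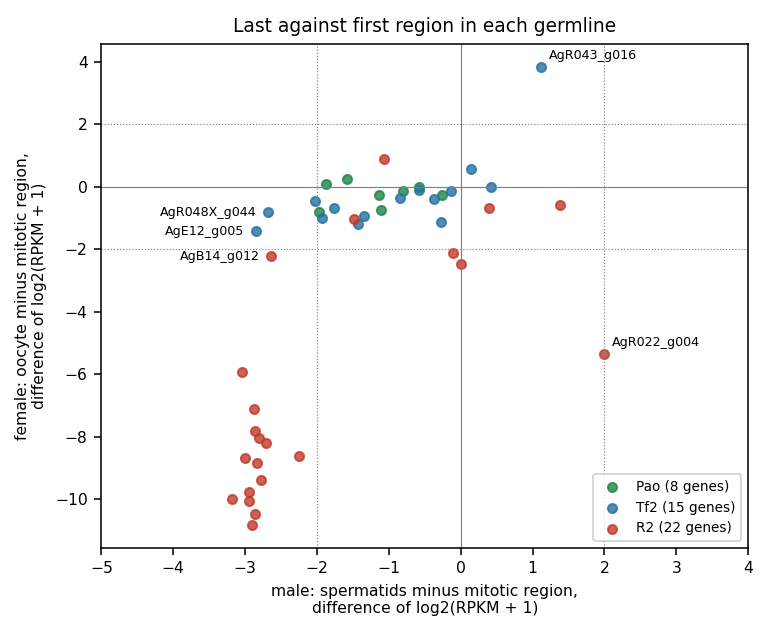
Difference of log2(RPKM + 1) between last and first region in the male (spermatids minus mitotic region, x axis) and in the female (oocyte minus mitotic region, y axis), with 1 point for each of the 45 genes, coloured by family, and dotted lines at 4-fold. Most R2 genes sit at the lower left, AgR022_g004 (2.00 and -5.35) at the lower right, and AgR043_g016 (1.12 and 3.85) alone at the top.

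The Tf2 genes, which in yeast belong to an element with long terminal repeats, were mostly at low levels, with 9 of 15 at 1 RPKM or more in some library and 3 at 10. The highest was AgR048X_g044 (transcript AgR048X_g044_t03, scaffold AgR048X, 637998 to 640384, plus strand, 1 exon, cap flag). It was at 51.5, 195.1, 22.6, 2.5 and 7.2 RPKM in the male regions and at 1.8, 0.7, 0.8, 0.6 and 0.6 in the female regions. All male values lie above all female values, and the mitotic regions differed by 4.23 on the log2(RPKM + 1) scale. A longer transcript of this gene, AgR048X_g044_t01, named for the large subunit of microsomal triglyceride transfer protein, had the same order with 84 RPKM in spermatogenesis, and reads could be divided between them.

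AgE12_g005 (AgE12, 155140 to 167541, no strand given) is 1 of the 2 members that are eliminated, that is, lost from somatic cells when Ascaris embryos discard part of their genome. At its most abundant transcript it was at 33.5, 88.1, 13.9, 2.3 and 3.8 RPKM in the male regions and 2.7, 1.1, 0.9, 0.8 and 0.4 in the female regions. That transcript, AgE12_g005_t03, is named for rims-binding protein 2. The longest one, AgE12_g005_t01, spans it, carries the Tf2 name and also peaked in spermatogenesis, with 10.3 RPKM before it (mitotic region), 1.3 after it (post-meiotic region) and at most 1.2 in a female region. The other transcript with the Tf2 name, AgE12_g005_t05, had the opposite order as deposited. It was at 13.1 RPKM in the male mitotic region against 6.3 in spermatogenesis, with 2.9 in the female mitotic region. Rescaling divides the first 2 of these libraries by 1.685 and 0.3951, which turns their order around, so no direction is given for this transcript. The other eliminated member, the Tf2 gene AgE01_g029 (AgE01, 419819 to 424214), was at 5.1, 4.3, 0.7, 0 and 0.5 RPKM in the male regions and at most 0.5 in a female region. Both had their highest values in the first 2 male regions.

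AgR043_g016 (AgR043, 346748 to 354561, minus strand, 2 exons, 5560 bases) was the only member called higher in the oocyte than in the female mitotic region. It was at 0.8, 0.4, 5.5, 3.2 and 2.9 RPKM in the male regions, and at 0.7, 0.3 and 0.3 in the first 3 female regions, then at 30.5 in diplotene and 23.5 in the oocyte. It was the highest member in the oocyte, with 45.4% of the members' summed RPKM there. From late pachytene to diplotene it differed by 4.60 on the log2(RPKM + 1) scale, and by 3.85 between oocyte and female mitotic region. Its second transcript, AgR043_g016_t02, had 23.5 and 22.8 RPKM in diplotene and oocyte. The other 6 of the 9 Tf2 genes at 1 RPKM or more had maxima of 1.7 to 5.1 RPKM. Over those 9, as deposited, the peak was in the male mitotic region in 5 and in spermatogenesis in 2. It was in the post-meiotic region in 1 and in diplotene in 1. Rescaling divides the male mitotic and spermatogenesis libraries by 1.685 and 0.3951, so the split between these regions rests on scaling. With rescaled libraries 4 Tf2 genes reached 10 RPKM. Of these, 3 peaked in spermatogenesis, 1 in diplotene and 0 in the male mitotic region.

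**Figure D5:**
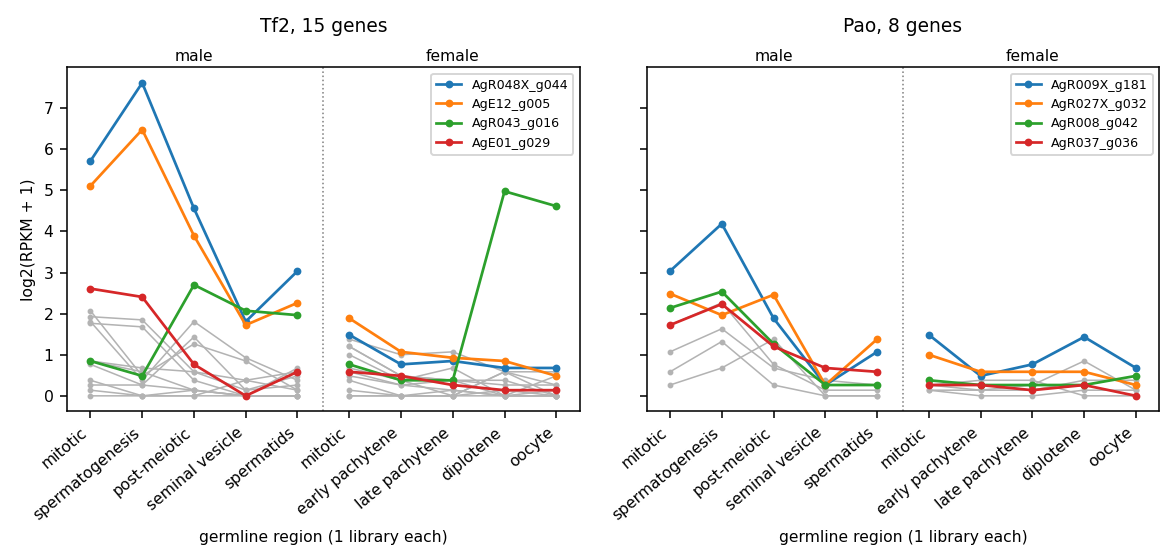
log2(RPKM + 1) of the 15 Tf2 genes (left) and the 8 Pao genes (right) by region, 1 library each, with lines joining the regions of 1 gene and the 4 genes of highest mean in each family in colour. AgR048X_g044 and AgE12_g005 peak in spermatogenesis at 195.1 and 88.1 RPKM, AgR043_g016 reaches 30.5 in diplotene, and the Pao genes lie low in every female region.

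The Pao genes were low and had their highest values in the male. Their median was 2.3, 3.3, 1.35, 0.2 and 0.2 RPKM along the male regions and at most 0.25 in a female region. All 8 reached 1 RPKM, and the peak was in spermatogenesis in 6, in the male mitotic region in 1 and in the post-meiotic region in 1, while 49.6% of 15162 genes at 1 RPKM or more peaked in a male region. The highest, AgR009X_g181 (transcript AgR009X_g181_t02, scaffold AgR009X, 2968994 to 2969588, no strand given, 1 exon), was at 7.2, 17.2, 2.7, 0.2 and 1.1 RPKM in the male regions and 1.8, 0.4, 0.7, 1.7 and 0.6 in the female regions. It was the only Pao gene at 10 RPKM or more, so most of the family lies under the level at which calls were made.

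The structure of the gene models was not used by the rule. A single exon was recorded in 31 of 45 (68.9%, against 14.6% of all genes), and no strand in 24 (53.3% against 10.5%), so for these 24 sense and antisense RNA cannot be told apart. Only 2 (4.44%) had a spliced leader flag, the mark of the short RNA that nematodes join to the start of many messages, against 43.0% of all genes, while a cap flag was present in 8 (17.8% against 14.6%). The 2 with both flags were AgR011_g308 and AgR011_g309. Elimination (4.44% against 5.16%) and X scaffolds (17.8% against 18.2%) were near the share of all genes. All 8 Pao genes had 1 exon.

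The members lay on 27 scaffolds, with 14 of them in 5 groups whose members were within 50000 bases of each other. The largest, AgR022 from 1965 to 36785, held 5 R2 genes, AgR011 from 4885480 to 5004004 held 3, and AgR003 from 4586045 to 4598658 and AgR009X from 6038554 to 6040358 held 2 each. A pair of Tf2 genes lay on AgR003 from 1778310 to 1778969. Levels were alike in some neighbours and far apart in others. AgR022_g002 and AgR022_g007 had means of 276 and 299 RPKM over the 10 libraries. In the AgR009X pair, AgR009X_g372 had 268.2 RPKM in the mitotic region of the male against 267.5 in that of the female, while AgR009X_g371 was at 0.2 and 4.5. In the AgR022 group, AgR022_g005 reached 3.5 RPKM, next to AgR022_g004 at 3036.3 in the same library. Between them and AgR022_g002 lies AgR022_g003, a hypothetical protein outside the family, at 1905.4 RPKM in the seminal vesicle. The kinase gene AgR011_g307 (4883087 to 4895617) overlaps the edge of the AgR011 span. It was highest in spermatogenesis, at 85.4 RPKM, where the 3 R2 genes of the group were below their male mitotic values as deposited. That edge rests on the spliced models AgR011_g308 and AgR011_g309_t01, of 260 and 1206 bases. The other R2 models of the group start at 4999433 or later, so the kinase gene is not shown to lie beside R2 sequence.

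Genes of the silencing machinery were set beside the members. In a list of 37 genes of transposon and small RNA silencing (argonaute, dicer, RNA-dependent RNA polymerase and tudor domain names), 0 of 27 were called in either direction between the female mitotic and early pachytene libraries, the step at which 15 R2 genes were lower. Calls were rare in that step (background 0.985% higher and 0.553% lower), and the median log2 difference of these 27 was -0.73, against -0.29 for all genes. In the oocyte against the female mitotic region 20 of 27 were lower (background 38.9%) and 0 higher (background 8.97%). Rescaled, 8 of 14 were lower (background 11.9%) and 0 higher (background 23.3%). In the post-meiotic region against spermatogenesis 8 of 12 were lower (background 31.5%) and 0 higher (background 23.9%). Rescaled, 12 of 18 were lower there (background 48%) and 0 higher (background 10.1%). The argonaute ALG-4, AgR004_g026, had 303.8 RPKM in spermatogenesis against 33 in the post-meiotic region, and at most 1.5 in a female region. The argonaute alg-1, AgR002_g431, was highest in the female mitotic region, at 115.6 RPKM, with 68.4 in early pachytene and 2 in the oocyte. The tudor domain gene AgE01_g033 had 71.4 RPKM in the male mitotic region against 79.4 in the female one. Of 15 heterochromatin genes, 6 were at 10 RPKM or more in a mitotic region. Of these, 2 were called higher in the male mitotic region (background 18.2%) and 0 lower (background 12.1%). Rescaled, 1 of 2 was higher (background 22%) and 0 lower (background 9.36%). The histone methyltransferase suv39h2 (AgB10_g155) had 23.5 RPKM in the mitotic region of the female against 11.8 in that of the male.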

How the data were processed

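RNA of dissected germline regions was extracted with Trizol, depleted of ribosomal RNA with a kit for human, mouse and rat, and made into libraries with a TotalScript kit, per the labels' protocols. TopHat2 and Cufflinks are named in the submitters' processing notes, with no version. The authors deposited 1 table of values per transcript and region, taken here as RPKM because low values step with transcript length, although the table does not name its unit. Not given in the sources used here were the genome build, annotation source, strandedness and the treatment of reads that map to several copies. Read totals are not in the table, so the precision of low values is unknown. The 2 mixed-sample libraries were not analysed here, and 15 empty columns were dropped.

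A gene is the transcript name without its isoform number and takes the transcript with the highest mean. That transcript lacks the annotation in 2 members, AgB03_g199 and AgE12_g005. Calls used log2(RPKM + 1), a pseudocount of 1 that understates differences of low genes, a 4-fold threshold and a floor of 10 RPKM on the higher value. Members, lists and rules were chosen with earlier results of these data known. Lists and marker sets match words in the annotation. The Pao family fell outside the family words set at first, and it and the list of ribosomal DNA transcripts were added after seeing the data. Named members were the 8 largest differences called each way per comparison, the largest per step, the 2 highest per region, the 10 highest by mean, the highest of each family and the eliminated ones. AgB14_g012 apart from its oocyte level, AgB03_g199, AgR003_g266, AgR009X_g371, AgR009X_g372, AgR022_g003, AgR022_g005 and AgR011_g307 were chosen after their values were seen. Rescaling divided libraries by median ratios over 4438 genes at 1 RPKM or more in all 10 libraries. Other alternatives were a pseudocount of 0.1, no floor, values summed per gene, only annotated transcripts, a 2-fold threshold and, added after seeing the data, 1 gene per locus. The rule for calls was tested on simulated data. Work was done in Python 3.11.15 with pandas 2.3.3, numpy 2.4.6 and matplotlib 3.10.9.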

Additional observations from a re-analysis of the deposited data

Results flagged for a closer look

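AgR022_g004, an R2 gene, differed between the sexes in its last region against its first. In the male it went from 272.9 RPKM (mitotic region) to 1091.6 (spermatids), a difference of 2.00 in log2(RPKM + 1). In the female it went from 342.5 RPKM (mitotic region) to 7.4 (oocyte), a difference of -5.35. Each sex has 1 library a region, so the difference between the sexes was not tested. Both signs held with rescaled libraries, at 3.21 and -3.93.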

How the results depend on the processing

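Without replicates, the alternatives show only how the counts of called members depend on processing. Rescaling by median ratios changed the counts most. Spermatids below the male mitotic region went from 17 members to 0, and spermatids above it from 0 to 1. Spermatogenesis above the mitotic region went from 0 to 6, and below it from 2 to 0. The post-meiotic region above spermatogenesis went from 16 to 1, and below it from 3 to 6. All 5 male regions above all 5 female regions went from 0 to 2. Its log2 factors ran from -1.34 for spermatogenesis to 1.06 for the mitotic region of the female, and it moved the median log2 difference of all genes to 0.242 for spermatogenesis against the mitotic region, to -0.159 for the seminal vesicle against the post-meiotic region and to -0.116 for spermatids against the mitotic region. A 2-fold threshold gave 1 member lower in the male than in the female mitotic region, 1 higher in spermatids than in the male mitotic region, 4 higher and 14 lower in spermatogenesis, 1 higher and 18 lower in the seminal vesicle against the post-meiotic region, and 1 lower in diplotene against late pachytene. Without the floor on low values, 4 members were higher and 1 lower in the male mitotic region. With no gap asked, 1 member had all male regions above all female regions, and leaving out 1 region at a time gave 0 to 1, with the 1 found without the male seminal vesicle. The cause of these changes was not tested. The other 106 counts stayed within 1.5 times under the alternatives run, among them those of early pachytene, of spermatids against the seminal vesicle and of the oocyte. With 1 gene per locus, 12 were lower in spermatids and 11 in the oocyte than in the mitotic region. Of single members and medians, 64 values moved by over 1.5-fold, 164 did not, and 0 called values changed sign. No paired analysis was possible because each region has 1 library and no comparison rests on a test.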

Other observations

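Other mobile element genes, found by words such as transposase, reverse transcriptase and gag with the members left out, numbered 169, and 54 reached 10 RPKM. In the mitotic regions 15 of 38 were called higher in the male (background 18.2%) and 2 lower (background 12.1%). Rescaled, 10 of 24 were higher (background 22%) and 2 lower (background 9.36%). Genes named for the LINE-1 reverse transcriptase, an element without long terminal repeats as R2 is, had another profile than R2. Of 51 such genes 15 reached 10 RPKM, and 12 of the 15 were highest in spermatogenesis (20.7% of all genes at 10 RPKM or more). Their summed RPKM was 438.9 in the male mitotic region, 608.3 in spermatogenesis, 170.2 in the post-meiotic region, 17.5 in the seminal vesicle and 48.5 in spermatids. In the female regions the sum was 75, 59.1, 58.1, 50.7 and 86.6. The sum was thus higher in the oocyte than in the female mitotic region, but the median was 0.3 RPKM in both. Of the 15 genes, 1 was highest in the oocyte. The most abundant of the X-element genes, AgR108_g002, was at 548.5 RPKM in spermatogenesis and at most 1.2 in a female region.

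The 6 genes with a dimerization domain of hAT transposons all peaked in the post-meiotic region as deposited (4.62% of all genes at 10 RPKM or more). With rescaled libraries 2 did and 4 peaked in spermatogenesis. Their summed RPKM was 111.4, 94.1, 244.7, 71.3 and 54.8 along the male regions and 131.4, 100.4, 87, 13.3 and 8.8 along the female regions. These kinds were split out after the values were seen.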
